A study of Mus musculus with 4 samples.

Results

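The 10 genes described here, Ada, Nt5e, Enpp3, Entpd1, Pnp, Xdh, Slc28a2, Slc29a1, Adora2a and Adora2b, encode proteins that break down extracellular nucleotides and purine nucleosides, move nucleosides across the cell membrane or sense adenosine. They were chosen by symbol, and all 10 were found among the 32286 features of the count matrices. Injured cells release ATP, which ectonucleotidases on the cell surface cut to AMP and then to adenosine. Adenosine acts on receptors, is taken up by concentrative or equilibrative transporters, or is deaminated to inosine, which is then broken down through hypoxanthine and xanthine to urate. In the small intestine the same steps also digest dietary nucleic acids at the brush border, and xanthine oxidoreductase, which makes superoxide and hydrogen peroxide in its oxidase form, has long been studied in ischemia and reperfusion (I/R).

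The cells came from distal jejuna of 2 control mice (Foxc1fl/fl;Foxc2fl/fl) and 2 EC-Foxc-DKO mice (Cdh5-CreERT2;Foxc1fl/fl;Foxc2fl/fl), all male adults treated with tamoxifen. Cdh5 drives Cre in blood and lymphatic endothelial cells, so deletion was aimed at these cells and at no others of the tissue. All 4 mice had intestinal I/R by clamping of the superior mesenteric artery and were taken 18.5 h later, and no uninjured mouse was analysed here, so no value below is a response to the injury. Each mouse was 1 library of 10x Genomics 3′ single-cell RNA sequencing, and n counts mice.

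Of 22679 barcodes, 5615 (24.8%) had at most 10% of their unique molecular identifiers (UMIs) on mitochondrial genes and were kept, 348 to 2742 per mouse, with median depths of 4254.5 to 19871 UMIs. This share was taken over the UMIs of the 18407 genes in the study's pooled data. Over all features 5876 barcodes would have passed. The limit bears on the genes described here, because the kept cells held only 15.2% of all Nt5e UMIs, 19.7% of Slc28a2, 19.96% of Ada and 21.5% of Enpp3, but 56.4% of Entpd1 and 70.4% of Slc29a1. Of the UMIs of all features they held 30487782 of 72046346 and 3918909 of 15557181 in the controls. In the EC-Foxc-DKO mice they held 28466972 of 64781444 and 23144474 of 38750638. Over all removed barcodes Ada stood at 3990 UMIs per 1000000 UMIs (CPM), against 1216 CPM over the kept cells. The kept cells fell into 23 clusters and 22 named cell types, with the 10 genes left out of the clustering. An epithelial cluster with Sprr2a3 among its 10 leading genes, none of them a hormone gene, is called by that gene. The CD8+ T cell cluster also held γδ T cell markers. Foxc1 gave 1 and 5 UMIs in the blood endothelial cells (BECs) of the controls and 1 and 0 in those of the EC-Foxc-DKO mice, and Foxc2 gave 0 in every mouse, so the deletion could not be checked at this depth. Cre gave 0 and 0 UMIs in control BECs and 3 and 2 in EC-Foxc-DKO BECs. Across libraries 51 barcodes occurred in 2 of them, and 4 kept cells shared a barcode with another kept cell.

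Among the genes with bases upstream of a RefSeq start and outside annotated exons, Ada, Slc28a2 and Enpp3 rose most steeply along the villus. Promoter sequences of these 3 are shown, so that they can be set beside their common pattern. Each is the strand of the gene, 5′ to 3′, from RefSeq on GRCm38.p6, at chr2:163750240-163750489 (minus strand) for Ada, chr2:122426185-122426434 (plus) for Slc28a2 and chr10:24836226-24836445 (minus) for Enpp3. The Enpp3 window lies before a RefSeq start inside the annotated span of the gene (chr10:24772406-24842823), not before the start of that span. Capitals mark a match, on either strand, to one of the motifs searched. The letters searched for were TATAAA for the TATA box, CCAAT for the box of that name, GGGCGG for the GC box, AGATAA for the motif of GATA factors and TTTATG for that of CDX factors.
Ada: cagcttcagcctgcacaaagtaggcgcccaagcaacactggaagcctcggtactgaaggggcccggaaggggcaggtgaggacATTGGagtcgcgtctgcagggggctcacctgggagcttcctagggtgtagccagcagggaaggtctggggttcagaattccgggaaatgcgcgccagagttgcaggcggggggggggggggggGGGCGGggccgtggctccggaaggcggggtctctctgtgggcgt
Slc28a2: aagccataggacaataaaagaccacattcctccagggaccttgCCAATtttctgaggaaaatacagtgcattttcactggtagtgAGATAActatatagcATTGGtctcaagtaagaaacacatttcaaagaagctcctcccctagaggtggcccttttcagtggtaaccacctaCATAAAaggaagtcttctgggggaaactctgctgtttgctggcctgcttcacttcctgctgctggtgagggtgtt
Enpp3: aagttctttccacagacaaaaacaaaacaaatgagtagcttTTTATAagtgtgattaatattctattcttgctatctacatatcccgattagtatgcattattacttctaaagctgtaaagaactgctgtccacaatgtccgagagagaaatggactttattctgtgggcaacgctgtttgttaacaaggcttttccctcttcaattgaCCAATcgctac
The 3 windows had little in common beyond a CCAAT box, which 33.8% of all 32536 upstream windows of this kind held. Of the Ada window 67.2% was G or C, and of Slc28a2 45.2%. The whole 250 bases before that RefSeq start of Enpp3 had 36.8%, against a median of 52.4% over all windows. The TATA box of Enpp3 occurred in 12.3% of windows, the GC box of Ada in 33.0%, and the GATA and CDX motifs of Slc28a2 in 9.97% and 10.8%. The AP-1 motif TGANTCA, held by 6.73% of windows, and the HNF4 motif CAAAGTCCA, held by 0.387%, were also searched and had no match in the 3 windows. A match is a description of the letters and says nothing of binding.

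Along the villus, Nt5e and Enpp3 (extracellular nucleotide breakdown), Ada (deamination of adenosine) and Slc28a2 (nucleoside uptake) rose steeply toward the top. To place cells without using the 10 genes, each of 1613 enterocytes was scored by markers of Top minus markers of Bottom enterocytes, and the score was split into 3 equal zones. The study drew these markers from the same data, and its Top enterocyte markers include Ada and Nt5e, which were left out of the score. The rise of Ada and Nt5e along the score was therefore in part fixed beforehand. The bottom zone was 94.8% Bottom enterocytes, the middle zone 69.6% Middle enterocytes, and the top zone 60.04% Top and 38.1% Middle enterocytes. The top zone held 350 and 5 cells in control replicates 1 and 2, and 175 and 8 cells in EC-Foxc-DKO replicates 1 and 2, so its values rest mostly on 2 mice. The zones were built from the same cells, and cells placed by other genes may differ from their true height. Median UMIs per cell fell toward the top in every mouse, as from 39057 to 15452.5 in control replicate 1. A level in CPM is a share of that falling total.

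Ada, adenosine deaminase (chr2:163726584-163750239, minus strand, GRCm38), had 51.2, 131 and 7977 CPM in the bottom, middle and top zone of control replicate 1. In control replicate 2 it had 10.03, 26.1 and 4932 CPM. The first EC-Foxc-DKO mouse gave 66.1, 129 and 9090.2 CPM, and the second 9.64, 122 and 1704 CPM. The top zone exceeded the bottom in all 4 mice, by 137-fold to 492-fold, and did not overlap the other zones. The 492-fold of control replicate 2 rests on 8 bottom UMIs and 5 top cells. Of bottom cells, 87.6% and 86.0% had an Ada UMI in control and EC-Foxc-DKO replicate 1, against 26.9% and 19.0% in replicate 2. The replicate 1 mice held 221 and 98 Top enterocytes, the replicate 2 mice 3 and 1. What RNA set free from other enterocytes gave in the bottom and middle zones was not tested for any gene. By edgeR's quasi-likelihood test of the trend with the mouse as a block, Ada rose by 3.95 log2 per zone (SE 0.38, adjusted p = 2.1e-06).

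Nt5e encodes CD73, the surface enzyme that turns AMP into adenosine, and lies at chr9:88327197-88372092 on the plus strand. From bottom to top, control replicate 1 gave 16.6, 27.3 and 1327 CPM, and the first EC-Foxc-DKO mouse gave 21.3, 25.1 and 1336 CPM. The second control had 3.76, 2.37 and 1260.4 CPM, the bottom and middle from only 3 and 1 UMIs. The second EC-Foxc-DKO mouse had 2.34, 11.5 and 44.8 CPM, the last from 5 UMIs. The top zone was highest in every mouse, but far lower in EC-Foxc-DKO replicate 2 than in the others. Nt5e rose by 3.35 log2 per zone (SE 0.43, adjusted p = 2.0e-05, edgeR).

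Enpp3, a nucleotide pyrophosphatase and phosphodiesterase of the cell surface (chr10:24772406-24842823, minus strand), gave 7.66, 65.9 and 1245 CPM from bottom to top in the first control and 1.25 (from 1 UMI), 206 and 1309 CPM in the second. EC-Foxc-DKO replicates 1 and 2 gave 4.85, 119 and 1649 CPM, and 5.70, 166 and 484 CPM. Its middle zone lay above its bottom zone in all 4 mice and below its top zone. Enpp3 rose by 3.88 log2 per zone (SE 0.28, adjusted p = 1.7e-07, edgeR).

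Slc28a2, a sodium-coupled concentrative transporter of purine nucleosides (chr2:122426477-122461137, plus strand), had 12.1, 21.3 and 889 CPM in control replicate 1 and 2.51, 2.37 and 679 CPM in control replicate 2. EC-Foxc-DKO replicates 1 and 2 had 7.40, 17.3 and 904 CPM, and 2.19, 15.1 and 798 CPM. The 4 top zones lay within 679 to 904 CPM, close together for this gene, and above every other zone. Slc28a2 rose by 3.85 log2 per zone (SE 0.38, adjusted p = 2.4e-06, edgeR).

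Xdh, xanthine dehydrogenase/oxidase (chr17:73883895-73950196, minus strand), rose less. The controls had 125, 324 and 467 CPM, and 97.8, 230 and 327 CPM. The EC-Foxc-DKO mice had 112, 294 and 433 CPM, and 131, 232 and 242 CPM. The order bottom, middle, top held in CPM in all 4 mice, and the rise was 0.96 log2 per zone (SE 0.11, adjusted p = 8.9e-06, edgeR). Per cell it held only in control replicate 2, with 97 UMIs in 19 middle cells and 27 in 5 top cells. The middle and top zones held 2919 in 251 and 2788 in 350 in control replicate 1. They held 1550 in 166 and 1305 in 175 in EC-Foxc-DKO replicate 1, and 522 in 101 and 27 in 8 in EC-Foxc-DKO replicate 2.

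Pnp, purine nucleoside phosphorylase, splits inosine and guanosine. The controls had 450, 581 and 468 CPM, and 528, 567 and 388 CPM, and the EC-Foxc-DKO mice 533, 552 and 362 CPM, and 300.4, 294 and 368 CPM. The top zone was neither the highest nor the lowest throughout, and the trend of 0.04 log2 per zone (SE 0.09, adjusted p = 0.73, edgeR) did not pass the test. Pnp (chr14:50931082-50965237, plus strand) overlaps its paralog Pnp2 and the gene model Gm49342 on the same strand, so its counts are uncertain. Adora2b, the low-affinity adenosine receptor (chr11:62248984-62266453, plus strand), was highest in the middle zone of all 4 mice, at 27.3, 35.6, 36.8 and 25.7 CPM, against 5.67, 6.27, 8.78 and 15.5 CPM in the bottom zone. In the top zone it stood at 11.6, 0, 13.95 and 8.97 CPM, and its linear trend did not pass (0.56 log2 per zone, SE 0.33, adjusted p = 0.152, edgeR). Entpd1, Slc29a1 and Adora2a did not pass the filter on low counts, with 2 UMIs of Entpd1 and 4 of Slc29a1 in all enterocyte zones together.

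Of the 7 of 10 members that passed that filter, 5 rose, 0 fell and 2 did not pass the test, where 28.4% of 9157 tested genes rose and 31.1% fell. The median over those 7 was 3.35 log2 per zone, against -0.02 over all genes. Under another scaling (RLE) the median of all genes moved to -0.16, and rising genes made up 35.4% of those called in place of 47.7%, but the same 5 members rose. Ada and Nt5e count among these 5, and as Top enterocyte markers of the study they are no independent part of the count.

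**Figure D1:**
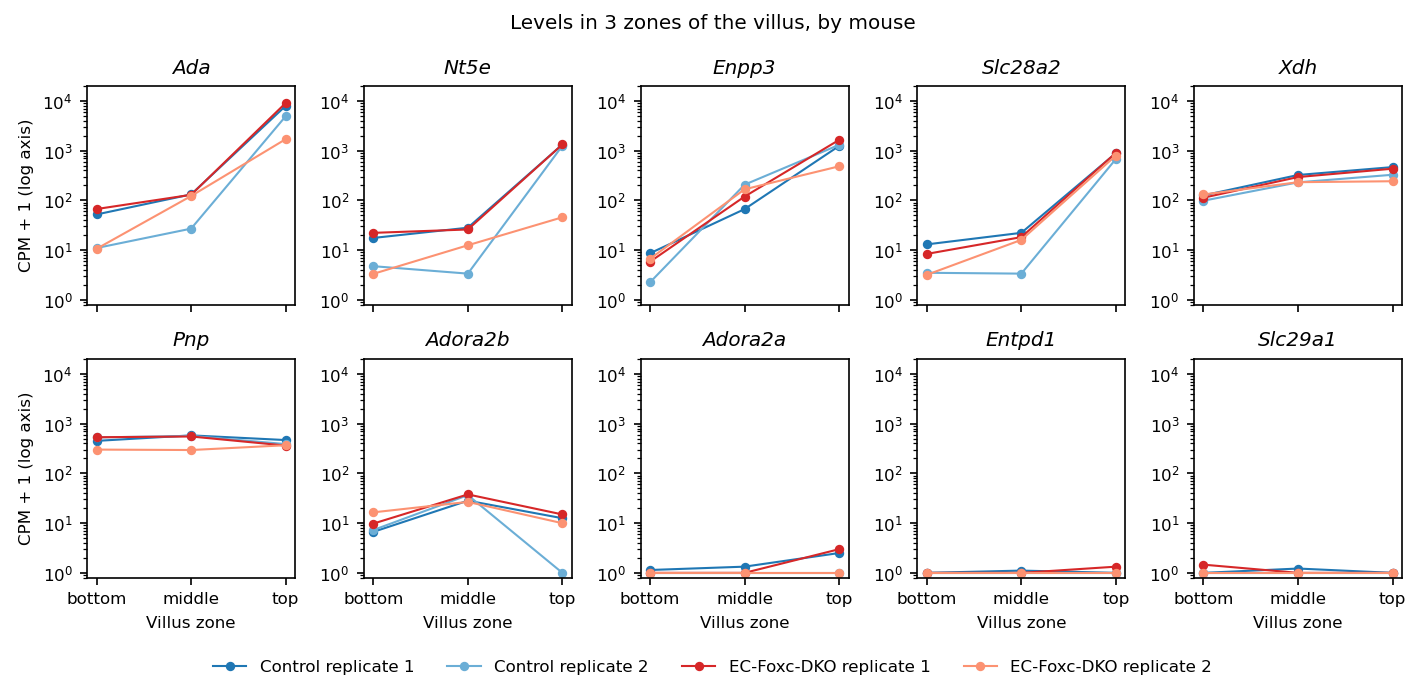
Level (CPM + 1, log axis) in the bottom, middle and top zone of the villus, 1 line per mouse, with 1 panel per gene. Ada, Nt5e, Enpp3 and Slc28a2 are highest in the top zone of all 4 mice. Adora2b has its highest value in the middle zone of all 4. Its top zones in control replicate 2 and EC-Foxc-DKO replicate 2 are below the floor and do not resolve this.

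A finer split of the score into 10 bins separated the genes further, and it is given for the 2 mice with at least 26 cells in every bin. In control replicate 1, Ada lay at 45.2 to 203 CPM in bins 1 to 7 and at 1630, 10733 and 18486 CPM in bins 8 to 10. In EC-Foxc-DKO replicate 1 the last 3 bins stood at 1317, 11432 and 21841 CPM. Nt5e was still at 113 and 79.6 CPM in bin 8 of these mice and reached 3453 and 3654 CPM in bin 10. Enpp3 climbed earlier, to 217 and 447 CPM in bin 7 and 933 and 1320 CPM in bin 8, with 1778 and 2059 CPM in bin 10. Xdh was highest in bin 9, at 528 and 537 CPM, and lay at 375 and 311 CPM in bin 10. Adora2b was highest in bins 6 and 7 (36.5 and 39.4 CPM, and 45.7 and 44.8 CPM) and stood at 1.97 and 1.30 CPM in bin 10, from 3 and 1 UMIs, where Ada was highest. These profiles are descriptions with no test.

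Ada, Nt5e, Enpp3 and Slc28a2 were also found in the same cells. All 4 had a UMI in 211 of 350 top zone cells of control replicate 1 (60.3%, exact 95% interval 54.9% to 65.4%) and in 105 of 175 of EC-Foxc-DKO replicate 1 (interval 52.3% to 67.3%). In the other mice it was 3 of 5 and 2 of 8 cells. Such intervals cover counting error only.

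Of a list of 56 genes of related steps, 55 were among the features. Of 30 that passed the filter on low counts, 10 rose toward the top and 9 fell, near the 28.4% and 31.1% of all genes tested, and their median of -0.07 log2 per zone was close to the -0.02 of all genes. Of the enzymes of extracellular nucleotide breakdown, 4 of 8 rose and 2 fell. Alpi, intestinal alkaline phosphatase, rose by 1.29 log2 per zone (SE 0.12), Entpd8, an ectonucleotidase, by 1.44 (SE 0.16), and Entpd2 and Entpd7 by less, whereas Entpd6 and Cd38, an NAD glycohydrolase, fell. Of intracellular breakdown and salvage, 3 of 11 rose (Nt5c2, Gda and Pnp2) and 6 fell. Nt5c2, a cytosolic nucleotidase, rose by 2.07 (SE 0.30), and Adk, adenosine kinase, which returns adenosine to AMP, fell by 1.25 (SE 0.17), in contrast to Ada. The salvage enzymes Aprt and Hprt fell as well, by 0.42 and 0.24. Of the transporters, Slc28a3, another concentrative nucleoside transporter, fell by 2.50 (SE 0.29) where Slc28a2 rose, and Abcg2, a urate exporter, rose by 0.39. The nucleotide receptor P2ry2 rose by 1.67 log2 per zone (SE 0.13). All of these passed edgeR's test at an adjusted p of 0.05.

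The gradients were not shown to differ between genotypes. The interaction of zone and genotype called 0 of 9517 genes (0%) by edgeR, with 115 at an unadjusted p of 0.05 and 0 by DESeq2, and 0 of 7 members. The difference in slope, EC-Foxc-DKO minus control, was -0.38 log2 per zone for Ada (SE 0.66), -0.71 for Nt5e (SE 0.77), 0.05 for Enpp3 (SE 0.53), 0.49 for Slc28a2 (SE 0.71) and -0.12 for Xdh (SE 0.23). Differences as large as these errors, and also larger ones, could have been missed with 2 mice per group.

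**Figure D2:**
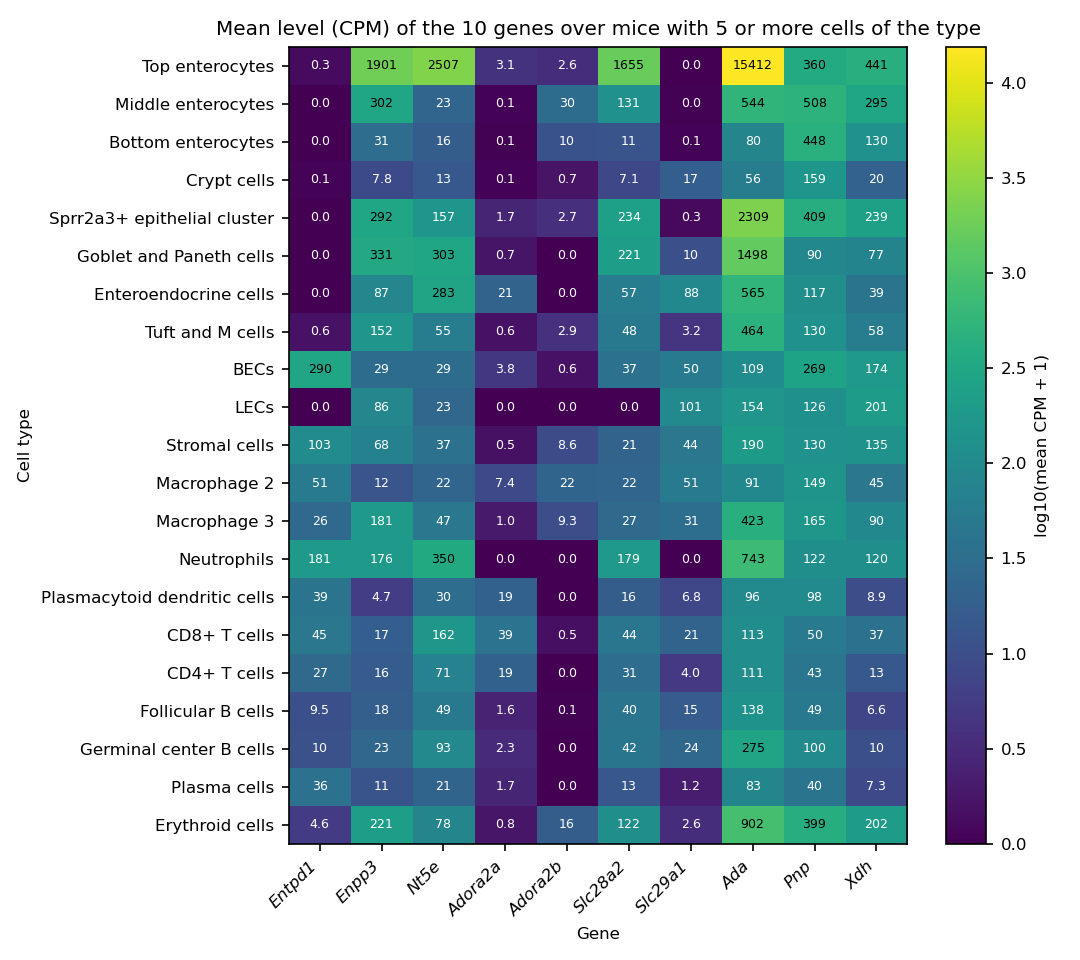
Mean level of each gene in the cell types reported, over the mice with at least 5 cells of it, with the value in CPM in each field and color on a log scale. Ada, Nt5e, Enpp3 and Slc28a2 are highest in Top enterocytes, Entpd1 in BECs and Adora2a in CD8+ T cells.

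Across the 22 cell types the genes fell to different cells. These levels are descriptions with no test, because the types are clusters of the same cells, and a mean is over mice with at least 5 cells. In Top enterocytes, which 2 mice had, Ada stood at 15412 ± 1749 CPM (SD, n = 2), Nt5e at 2507 ± 76.5, Enpp3 at 1901 ± 235 and Slc28a2 at 1655 ± 77.6. The next types lay well below, beyond the spread between mice, namely the Sprr2a3+ epithelial cluster for Ada (2309 ± 947 CPM, n = 3) and Slc28a2 (234 ± 90.0), neutrophils for Nt5e (350 ± 416, n = 3) and goblet and Paneth cells for Enpp3 (331 ± 200, n = 3). The neutrophil mean of Nt5e rested mostly on control replicate 1. In the EC-Foxc-DKO mice neutrophils lay below CD8+ T cells, as given below beside free enterocyte RNA. Xdh was highest in Top enterocytes at 441 ± 26.5 CPM (n = 2), followed by Middle enterocytes at 295 ± 76.8 (n = 4). Pnp had 508 ± 108 CPM in Middle and 448 ± 102 in Bottom enterocytes (n = 4), which do not differ beyond their spread. In secretory cells the levels of the top genes moved with the mouse. Ada in enteroendocrine cells stood at 1199 and 69.4 CPM in the controls and 973 and 17.8 CPM in the EC-Foxc-DKO mice, and Nt5e at 502, 139, 438 and 53.5 CPM, both high in the 2 mice with many Top enterocytes. The enterocyte genes made up 1.41%, 0.22%, 2.39% and 0.96% of UMIs there, and their part in these levels was not tested. Adora2b stood at 29.7 ± 5.68 CPM in Middle enterocytes and 21.5 ± 14.7 in the cluster named Macrophage 2 (n = 4), which overlapped.

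Among endothelial cells, Entpd1 was the gene with the clearest level. Entpd1 encodes CD39, which cuts ATP and ADP to AMP on the vessel wall and on leukocytes, and lies at chr19:40612366-40741602 on the plus strand. Its level in BECs was 336 and 299 CPM in the controls and 355 and 170 CPM in the EC-Foxc-DKO mice, a mean of 290 ± 83.4 (SD, n = 4). Of 171 BECs, 66.1% had a UMI of Entpd1, whereas 0 of 683 Bottom enterocytes had one (by a floor of 3 counts over the mice, up to 0.439% of cells with a UMI), although those were deeper (median 23263.5 to 39257.5 UMIs per mouse, against 3589 to 5118 in BECs). Neutrophils followed at 181 ± 97.5 CPM (n = 3), and their range of 121 to 294 overlapped that of BECs. In lymphatic endothelial cells (LECs) Entpd1 had 0 UMIs in 18 cells, and the floor of 3 counts there is 24.9 CPM, so expression below that was not detectable.

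The enzymes of the last steps were also found in BECs. Pnp stood there at 208, 325, 260.03 and 280.4 CPM in control replicates 1 and 2 and EC-Foxc-DKO replicates 1 and 2, and Xdh at 134, 223, 211 and 127 CPM, with the genotypes overlapping for both. Slc29a1 is an equilibrative nucleoside transporter that takes adenosine back up into cells (chr17:45585200-45599606, minus strand). It had 60.5, 53.5, 27.9 and 59.5 CPM in BECs, from 40 UMIs. In LECs it stood at 101 ± 52.3 CPM (n = 2), from only 9 UMIs, and in enteroendocrine cells at 93.5, 97.1, 102 and 60.6 CPM, which do not differ from LECs beyond the spread. Macrophage 2 and BECs, at 51.0 ± 20.6 and 50.3 ± 15.3 CPM, also could not be ordered. In Top enterocytes, where Slc28a2 was highest, Slc29a1 had 0 UMIs in 323 cells, nearly all from 2 mice, with a floor of 3 counts at 0.634 CPM, which limits the level and not the share of cells that express it. Crypt cells had 16.1, 17.5, 15.9 and 17.3 CPM of Slc29a1, the same level in every mouse to within 0.81 (SD). A gene on the other strand, Gm17080, overlaps Slc29a1. The adenosine receptors were near their floor in BECs, with 3 UMIs of Adora2a and 1 of Adora2b in all 4 mice.

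**Figure D3:**
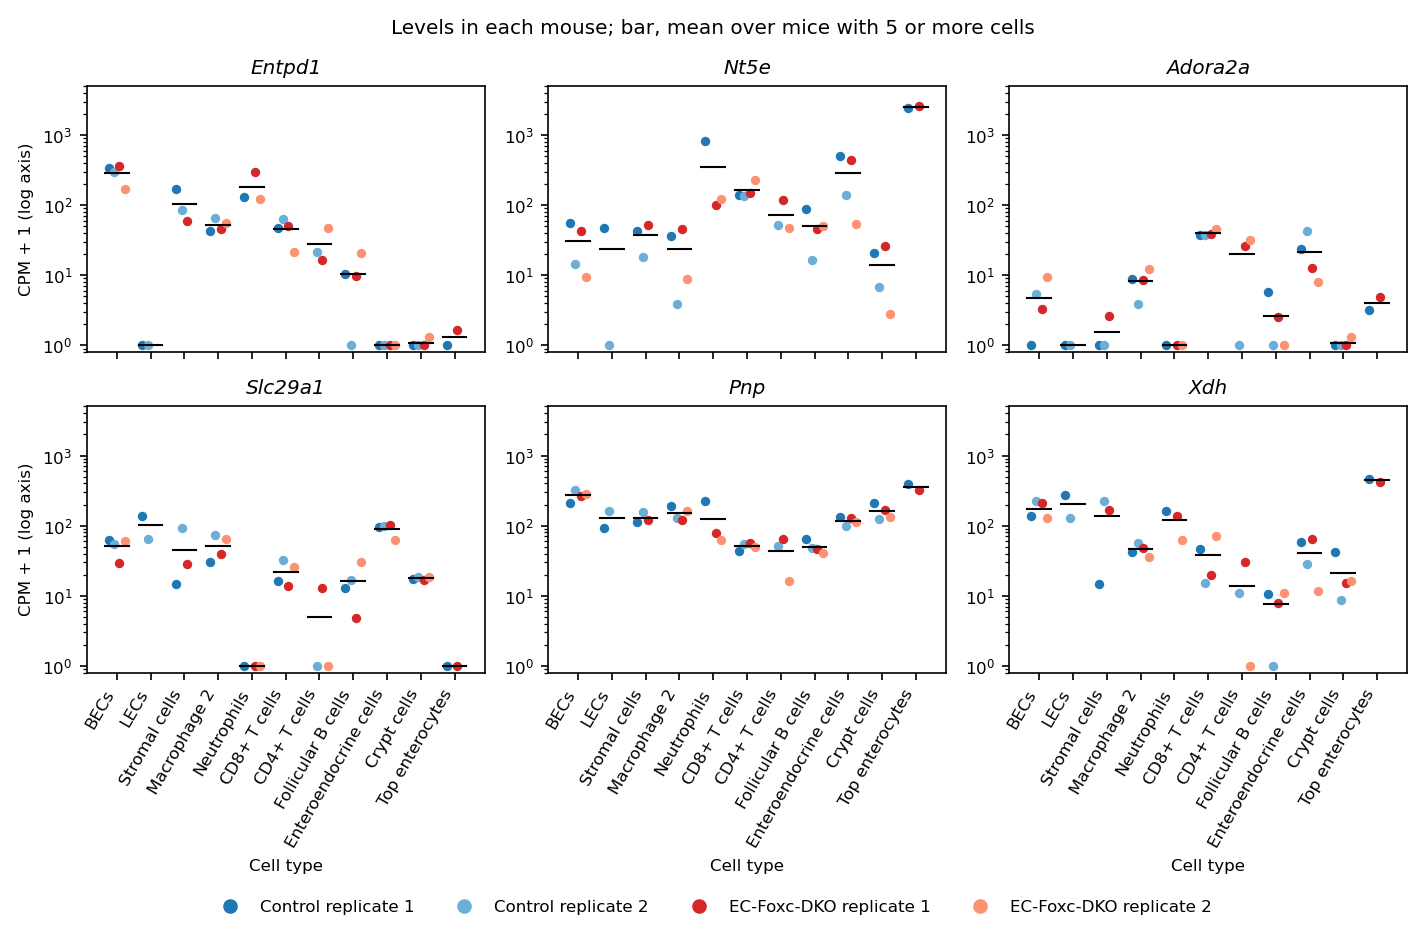
Level (CPM + 1, log axis) of 6 of the genes in selected cell types, 1 point per mouse with at least 5 cells, in blue for controls and red for EC-Foxc-DKO mice, with a bar at the mean. Entpd1 in BECs spans 170 to 355 CPM, and Adora2a in CD8+ T cells 36.4 to 44.8 CPM.

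Outside the epithelium, RNA set free from enterocytes also gives UMIs, so the levels of the genes that are abundant in Top enterocytes are given beside the UMIs that such RNA would give. The first estimate scales the gene's level in villus enterocytes by the summed level of 10 abundant enterocyte genes in the cell type, relative to villus enterocytes of the same mouse. The second multiplies the UMIs of Top enterocyte markers in the cell type by the ratio of the gene to those markers in the removed barcodes of the same mouse. For Ada the observed counts lay near the second estimate in many types. Macrophage 2 had 347 Ada UMIs against 65.9 and 406 expected, BECs 110 against 23.3 and 93.1, CD8+ T cells 283 against 59.4 and 190, and follicular B cells 1015 against 223 and 680. Germinal center B cells had 272 against 18.0 and 132. The first estimate was exceeded in each of these types, and the second in all but Macrophage 2, least in BECs and most in germinal center B cells. The first takes its level from kept enterocytes. Removed barcodes were richer in Ada (3990 against 1216 CPM over kept cells) and Slc28a2 (466 against 140 CPM), so exceeding the first decides little. Slc28a2 lay above both estimates in follicular B cells (219 UMIs against 22.9 and 74.5) and in CD8+ T cells (81 against 6.32 and 21.4). All these counts are pooled over mice. EC-Foxc-DKO replicate 1 held 1204 of the 1378 follicular and 71 of the 105 germinal center B cells, so the B cell counts may rest mostly on that mouse.

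Nt5e in CD8+ T cells stood far above both estimates. Its level there was 139 and 136 CPM in the controls and 150 and 224 CPM in the EC-Foxc-DKO mice, or 162 ± 41.6 (SD, n = 4). This came from 302 UMIs, against 9.31 and 40.8 expected, and the count was above both estimates in all 4 mice. A UMI of Nt5e was found in 49.2% to 52.2% of CD8+ T cells per mouse, against 4.17% to 25.8% of BECs at similar depth. After thinning to 1000 UMIs per cell the share was 11.5% to 19.9% in CD8+ T cells and 0.736% to 6.28% in BECs. In neutrophils 110 Nt5e UMIs were counted against 15.9 and 59.95 expected, with 830.5 CPM in control replicate 1 and 97.9 and 121 CPM in the EC-Foxc-DKO mice. Germinal center B cells gave 90 against 2.68 and 26.1, and CD4+ T cells 81 against 4.02 and 24.4. EC-Foxc-DKO replicate 1 held 71 of the 105 germinal center B cells and 99 of the 134 CD4+ T cells, so these pooled counts may rest mostly on that mouse.

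**Figure D4:**
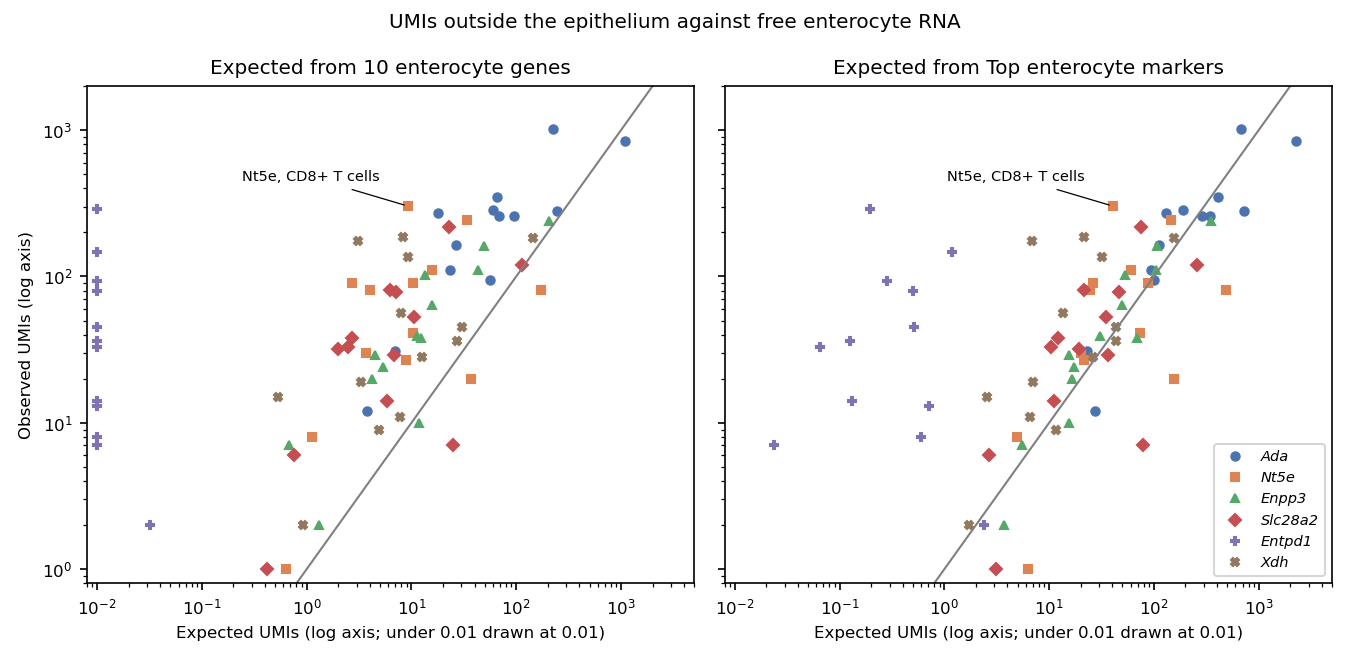
Counted UMIs (y) against the UMIs expected from free enterocyte RNA (x), for 6 genes in the cell types reported outside the epithelium, on log axes with a line where both are equal, by the first estimate (left) and the second (right). Nt5e in CD8+ T cells (302 counted, 9.31 and 40.8 expected) lies above the line in both panels.

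Villus enterocytes held 0.258% of Entpd1 UMIs and 9.74% of Adora2a UMIs, but 85.5% of Adora2b UMIs, of which free RNA would give 0.679 and 1.13 UMIs in Macrophage 2 against 73 counted, and 2.47 and 2.04 UMIs in Macrophage 3 against 3 counted. Adora2a, the high-affinity receptor through which adenosine restrains T cells and other leukocytes (chr10:75316877-75334784, plus strand), was highest in CD8+ T cells. Its level was 36.4 and 36.9 CPM in controls and 37.2 and 44.8 CPM in EC-Foxc-DKO mice, from 74 UMIs in 66 of 411 cells (16.1%). The 4 mice lay close together, at 38.8 ± 4.02 CPM (SD). Enteroendocrine cells followed at 20.8 ± 15.3 CPM (n = 4), with values of 7.13 to 41.6 that overlap those of CD8+ T cells, and CD4+ T cells at 18.8 ± 16.5 (n = 3). In Macrophage 2 Adora2a stood at 7.35 ± 3.36 CPM and Adora2b at 37.0, 2.92, 17.6 and 28.5 CPM, the lowest in control replicate 2. Neutrophils had 0 UMIs of either receptor in 56 shallow cells, where the floor of 3 counts is 15.7 CPM, so expression below that was not detectable.

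Entpd1 was lower in Macrophage 2 and CD8+ T cells than in BECs, whereas neutrophils overlapped BECs. It had 41.5, 64.2, 45.2 and 53.9 CPM in Macrophage 2 and 45.5, 62.4, 49.9 and 20.4 CPM in CD8+ T cells, which overlap. CD8+ T cells thus held Nt5e, Entpd1 and Adora2a, the genes of CD73, CD39 and the receptor, each in all 4 mice. Whether the same cells held them was not tested.

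In each compartment the most abundant other genes of the list were enzymes of breakdown and salvage. In villus enterocytes these were Aprt (703 ± 34.9 CPM, n = 4), Gda (545 ± 145) and Alpi (510 ± 182), in immune cells Aprt (212 ± 68.1), Cd38 (157 ± 24.2) and Gda (131 ± 84.4), and in BECs Gda (308 ± 77.9), Aprt (196 ± 29.3) and Upp1 (180 ± 51.7). Gda encodes guanine deaminase, Aprt adenine phosphoribosyltransferase and Upp1 uridine phosphorylase.

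The genes whose levels over the 22 cell types were most like those of the members are given with Pearson's r of log2(CPM + 1), as a description over types that share libraries. For Ada these were Clca4a (r = 0.97), Ly6m (0.95) and Bmp8a (0.93), and for Enpp3 Nckap5 (0.95), Abhd2 (0.93) and Dnpep (0.92). Clca4a, Ly6m and Dnpep were among the markers used for the villus score. Slc28a2 was most like Slc23a4 (0.90), Xdh like Lysmd3 (0.93) with Gda (0.88) among its nearest 3 genes, Pnp like Gnb1 (0.93), Entpd1 like Tm6sf1 (0.90), Slc29a1 like Hipk3 (0.91) and Adora2a like Smpd5 (0.85). Nt5e was most like Gm26708 (0.86), with Ada (0.83) among its nearest 3 genes. Between members the highest r was that of Ada and Enpp3 (0.90) and the lowest that of Slc28a2 and Slc29a1 (-0.53), the concentrative and the equilibrative transporter.

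No member was shown to differ between genotypes. Sums of UMIs over each mouse's cells of a type were compared by edgeR in 9 cell types, in which members passed the filter on low counts 48 times. Of these 48 tests 0 were called, 1 had an unadjusted p under 0.05, and DESeq2 called 0. Of all genes 0% were called in 8 of the types and 0.0894% in plasma cells (1 of 1119), with 38 to 291 genes per type at an unadjusted p under 0.05 and 0 to 4 called by DESeq2. In BECs, in which Cdh5 drives Cre, Entpd1 differed by -0.22 log2, EC-Foxc-DKO against control (SE 0.39), Xdh by -0.05 (SE 0.39), Pnp by -0.02 (SE 0.34), Slc29a1 by -0.60 (SE 0.61) and Ada by -0.31 (SE 0.81). With 2 mice per group, differences as large as these errors, and also larger ones, could have been missed.

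Single values outside BECs were no clearer. The test with the lowest p was Adora2b in Bottom enterocytes, at 6.57 and 6.15 CPM in controls and 11.1 and 17.9 CPM in EC-Foxc-DKO mice. The difference was 1.22 log2 (SE 0.39, adjusted p = 0.999, edgeR), among 0% of genes called in that type. EC-Foxc-DKO replicate 2 had its enterocytes mostly in the bottom zone (252 of 361 cells), and whether cell position moved this value was not tested. Enpp3 in the same cells had 33.0 and 1.23 CPM against 41.9 and 47.8 CPM (1.05 log2, SE 0.62, adjusted p = 0.999, edgeR), and the difference was 5.20 log2 without control replicate 1 and 0.48 without control replicate 2. In CD8+ T cells, where 0% of genes were called, Nt5e differed by 0.39 log2 (SE 0.27), Adora2a by 0.12 (SE 0.38) and Entpd1 by -0.39 (SE 0.42). Over all enterocytes together, 7 members were tested and 0 called, but there the genotype cannot be told apart from the uneven zones of the 4 mice.

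**Figure D5:**
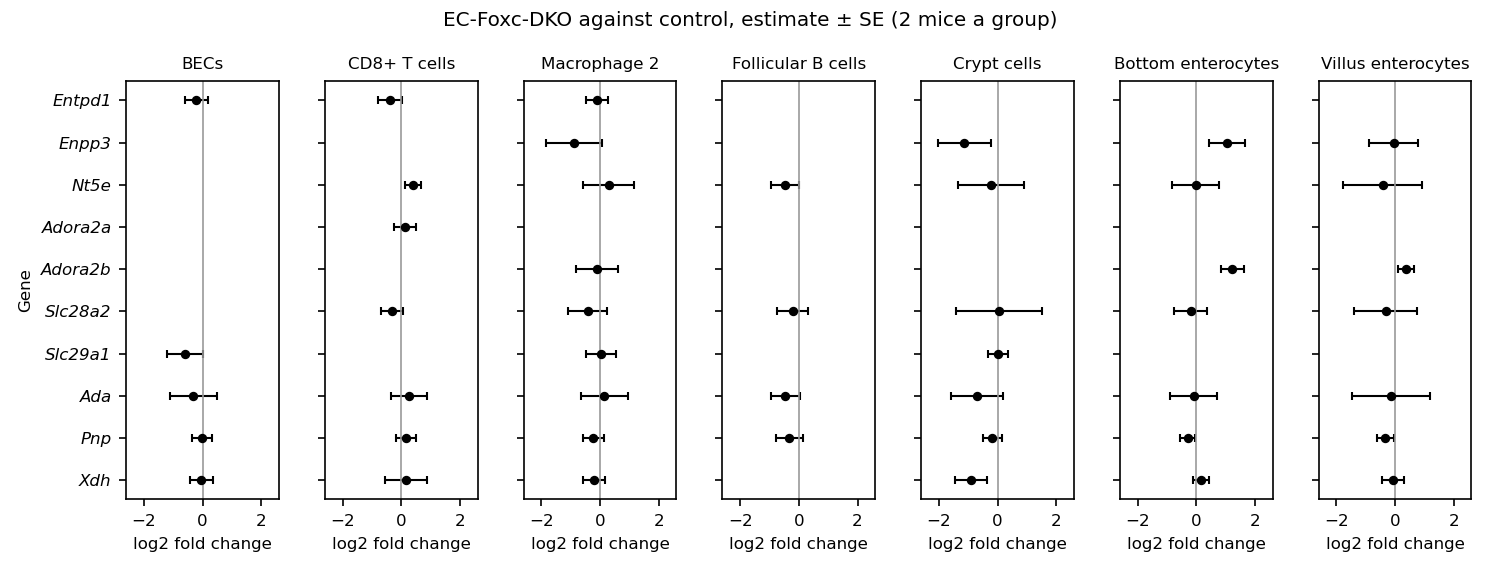
Log2 difference of each gene between EC-Foxc-DKO and control mice in 7 of the 9 cell types tested, as points with standard errors, from edgeR on 2 against 2 mice. The points lie between -1.13 (Enpp3, crypt cells) and 1.22 (Adora2b, Bottom enterocytes), and none of those drawn passed an adjusted p of 0.05.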

How the data were processed

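UMI counts per gene and barcode in 4 libraries, 1 per mouse, were analysed as the authors deposited them, whole numbers that were not normalized. The authors made the counts on mm10 with the sequence of Cre added. The submitters' processing notes name Cell Ranger 4.0.0, and the methods another version. The count totals were 15557181 to 72046346 UMIs per mouse. No column was left unused (0).

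Barcodes with over 10% mitochondrial UMIs were removed, and the kept counts were scaled to 10000 UMIs in each cell, log-transformed and clustered (scanpy 1.11.5, 15 components, 15 neighbors, Leiden resolution 0.5) without the 10 genes. Names came from published marker lists of the study, and a difference from the study may come from these rebuilt names. Doublets were kept, since the methods state no removal. Villus zones were tertiles, over all mice, of the mean z-score of 8 Top minus 10 Bottom enterocyte markers. Levels in CPM are UMIs per 1000000 UMIs of the mouse and cell type. UMIs count 3′ ends and do not scale with transcript length, and levels are compared within a gene. Sums per mouse were tested with edgeR 4.0.16 (R 4.3.3; quasi-likelihood, filterByExpr, TMM scaling, Benjamini-Hochberg adjustment over all genes tested, threshold 0.05), for genotype in cell types with at least 10 cells in every mouse. The standard error is the log2 value divided by the root of F. The tests were run on simulated data first. DESeq2 1.42.0, RLE scaling, no low-count filter, a mitochondrial limit of 20%, doublet removal, a resolution of 1.0, members kept in the clustering, 5 zones, zones within each mouse, thinned scores, replicate blocks and leaving out each mouse were alternatives. A crossed block, zone sums of at least 20 cells and the second estimate of free RNA were added after seeing the data.

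All 10 members are named. Of the 56 other listed genes, the 3 with the highest level per compartment and at most 6 per test by lowest p are named by rule; the further listed genes were named after their values were seen. The members and lists were chosen with earlier results of these data known. Whether the mice came from separate litters is not given in the sources used here. The p-values of the genotype tests by cell type measure the spread between these mice. Those of the villus tests measure the scatter of zone sums about a slope that mice share, and not how slopes vary between mice. The sources used here do not say whether replicate numbers mark pairs or batches, and the reported genotype tests did not use them. Same-numbered mice were alike in some values, such as their Top enterocytes (221 and 98 cells in control and EC-Foxc-DKO replicate 1, 3 and 1 in replicate 2). Whether they shared a batch was not tested. Some items are not reported here.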

Additional observations from a re-analysis of the deposited data

How the results depend on the processing

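The rise of Ada, Nt5e, Enpp3, Slc28a2 and Xdh toward the villus top passed the threshold under every setting tried. Every setting scored cells by the study's Top and Bottom markers from these data, so for Ada and Nt5e this was in part fixed beforehand. The slopes over the 14 settings with 3 zones were 3.51 to 4.39, 3.13 to 4.19, 3.56 to 4.16, 3.49 to 4.19 and 0.84 to 1.10 log2 per zone, and with 5 zones, whose steps are smaller, 2.22, 1.98, 2.39, 2.24 and 0.53. Without a low-count filter 7 of 10 members rose, Adora2a and Adora2b in addition, where 2797 of 16692 genes rose. Adora2b passed a linear trend there, although its CPM was highest in the middle zone of every mouse. With zone sums of at least 20 cells 6 of 8 members rose, Adora2a in addition, where 2900 of 10489 genes rose. The slope of Adora2a was 2.46 to 2.52 log2 per zone in these settings, from at most 9 UMIs per mouse and zone. The sign of Pnp along the villus turned under RLE (-0.079), DESeq2 (-0.083), no filter (-0.011), a 20% mitochondrial limit (-0.17) and 5 zones (-0.044), and it ranged from -0.041 to 0.089 when each mouse was left out, past the threshold in none. The slope difference between genotypes was called for 0 members in every setting, and for 0 genes except 5 without a filter, 1 with thinned scores and 1 without EC-Foxc-DKO replicate 2. Its sign turned for Enpp3 with DESeq2 (-0.012), the 20% limit (-0.61), 5 zones (-0.10), zones within each mouse (-1.03) and thinned scores (-0.35), for Slc28a2 with zones within each mouse (-0.25), and for Xdh with the 20% limit (0.019) and zone sums of at least 20 cells (0.025). Leaving out each mouse gave -1.30 to -0.0034 for Ada, -2.68 to -0.33 for Nt5e, -0.58 to 0.51 for Enpp3, -1.45 to 0.92 for Slc28a2 and -0.42 to 0.18 for Xdh.

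Between genotypes, the count of members called was 0 in the values reported, 1 without a low-count filter (Enpp3 in Bottom enterocytes, 1.07 log2), 1 with the crossed replicate block (Adora2b in Bottom enterocytes, 1.38), and 0 to 7 when each mouse was left out. All 7 came without EC-Foxc-DKO replicate 1, among them Adora2b (1.53), Nt5e (-2.001) and Pnp (-0.65) in Bottom enterocytes and Ada in CD8+ T cells (-1.75) and follicular B cells (-4.47). In that setting 981 of 10265 genes were called in Bottom enterocytes, 68 of 5495 in CD8+ T cells and 17 of 1791 in follicular B cells. A single call came without control replicate 1. There the lone mouse of a group is assumed to vary like the other group. Replicate numbers were checked by the correlation of deviations, -0.33 to 0.17 over the 9 cell types. The replicate block called 0 members and 0 to 6 genes per type, the crossed pairing 0 to 168, no filter 4 to 148, and the 20% limit 0 to 8, against 0 to 1. In BECs the sign turned for Ada at the 20% limit (0.57), for Pnp without a filter (0.0030) and with the replicate block (0.038), and for Xdh at the 20% limit (0.15) and without doublets (0.0014). Leaving out each mouse gave -2.89 to 1.33 for Ada, -0.27 to 0.36 for Pnp, -0.57 to 0.38 for Xdh and -0.95 to 0.18 for Entpd1, and in other types 0.48 to 5.20 for Enpp3 in Bottom enterocytes and -1.38 to -0.10 for Entpd1 in CD8+ T cells. The causes were not tested. The leading cell type of Slc29a1 became enteroendocrine cells without control replicate 1, and that of Xdh Middle enterocytes at the 20% limit. By the mean share of cells with a UMI, enteroendocrine cells led for Adora2a (26.3%) and Slc29a1 (61.5%), and Bottom enterocytes for Pnp (99.6%). After thinning to 1000 UMIs per cell, the leading types by share were those by CPM.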
